A study of Mus musculus with 30 samples.

Results

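A group of 10 integrin genes was followed in hippocampal RNA of mice lacking TIMP2, a secreted inhibitor of matrix metalloproteinases. They were taken by name from a table of 49315 genes, and they are 10 of the 27 integrin subunits looked up in it. Itga3 and Itgb1 encode alpha3 and beta1, which together form the receptor that TIMP2 is known to bind. Itga5, Itga6, Itga7, Itga8 and Itga9 encode other alpha subunits that pair with beta1, and Itgav, Itgb5 and Itgb8 encode alphav and a pair of its beta partners. The rule that lists them uses no measured value, although the group was drawn up with earlier results of these data known. All 10 passed the filter on low counts, as did 11 of the other 17 subunits.

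Bulk RNA-sequencing had been performed on whole hippocampi of C57BL/6J mice, 1 library per mouse. The TIMP2 KO group held 13 mice, 6 male and 7 female, the WT group held 17, 10 male and 7 female, and no mouse was treated. The deletion is global and not restricted to a cell type, and the methods state that controls were littermates. The labels give neither the age of these mice nor a batch. The study's network methods name the date of isolation or harvest as a source of variation, and since that date is not in the labels used here it was not fitted. Counts on genes lay between 18345517 and 41081083 per mouse.

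Integrins are alpha-beta pairs that span the cell membrane, hold the cell to laminin, fibronectin and other matrix proteins, and pass signals in both directions through talin, kindlin and focal adhesion kinase. In the hippocampus they are known to anchor vessels and astrocyte endfeet to the basement membrane, to take part in the migration of newborn neurons and to act at dendritic spines. Because beta1 has many alpha partners, the transcript of Itgb1 bears on many receptors. That of an alpha subunit bears on fewer, although alphav pairs with several beta subunits and alpha6 also with beta4. RNA of whole tissue was measured, so fewer cells carrying an integrin and less integrin RNA per cell cannot be told apart, and neither receptor pairing nor protein was measured.

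The targeted gene was examined first. Timp2 lay between 130.0 and 170.9 CPM (read counts relative to the total of the library) in TIMP2 KO mice, with a median of 160.8, and between 256.4 and 380.4 in WT mice, with a median of 333.0. The groups did not overlap, and the log2 difference was -0.999, a level lower by 45.8% to 53.8% as a 95% interval (standard error 0.06, adjusted p = 3.32e-13 by the quasi-likelihood test of edgeR, adjusted by Benjamini-Hochberg over all genes). Timp2 reads thus remained in every TIMP2 KO mouse, at no fewer than 2980 counts.

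Per kilobase of exon, the order of integrin levels was led by beta subunits. Itgb5 had a median over the 30 mice of 14.3 CPM per kb (range 12.5 to 16.4) and Itgb1 of 13.9 CPM per kb (13.2 to 15.8), and the pair could not be ordered, Itgb5 being the higher in 15 of 30 mice. Itgb8 followed at 8.55 CPM per kb (7.18 to 10.2), Itgav at 5.25 (4.43 to 6.36) and Itga6 at 3.15 (2.75 to 3.70). Each of these 3 was below the one before it in all 30 mice.

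A tier of alpha subunits came next, with overlapping ranges. Itga7 had a median of 2.30 CPM per kb (1.84 to 3.49), Itga3 of 2.20 (1.97 to 2.82) and Itga8 of 2.13 (1.76 to 2.58), and Itga4, which is no member of the group, lay among them at 2.35 (1.82 to 2.78). Itga7 exceeded Itga3 in 20 of 30 mice and Itga3 exceeded Itga8 in 19. Itga9 (0.679 CPM per kb) and Itga5 (0.287) were the lowest of the 10, and Itga5 rested on 14 to 64 counts per mouse.

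The alpha3 transcript of the TIMP2 receptor was well below that of its beta partner. The Itga3 level per kb was 15.8% ± 0.89 of that of Itgb1 in the 13 TIMP2 KO and 15.5% ± 1.86 in the 17 WT mice (mean ± SD). Of the summed level per kb of the 7 alpha genes described, Itgav held 32.2% ± 1.42 in TIMP2 KO and 33.3% ± 1.65 in WT mice, Itga6 19.8% ± 0.79 and 19.4% ± 0.92, and Itga3 14.0% ± 1.03 and 13.5% ± 1.31. These shares are a description of transcript levels and carry no test.

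**Figure D1:**
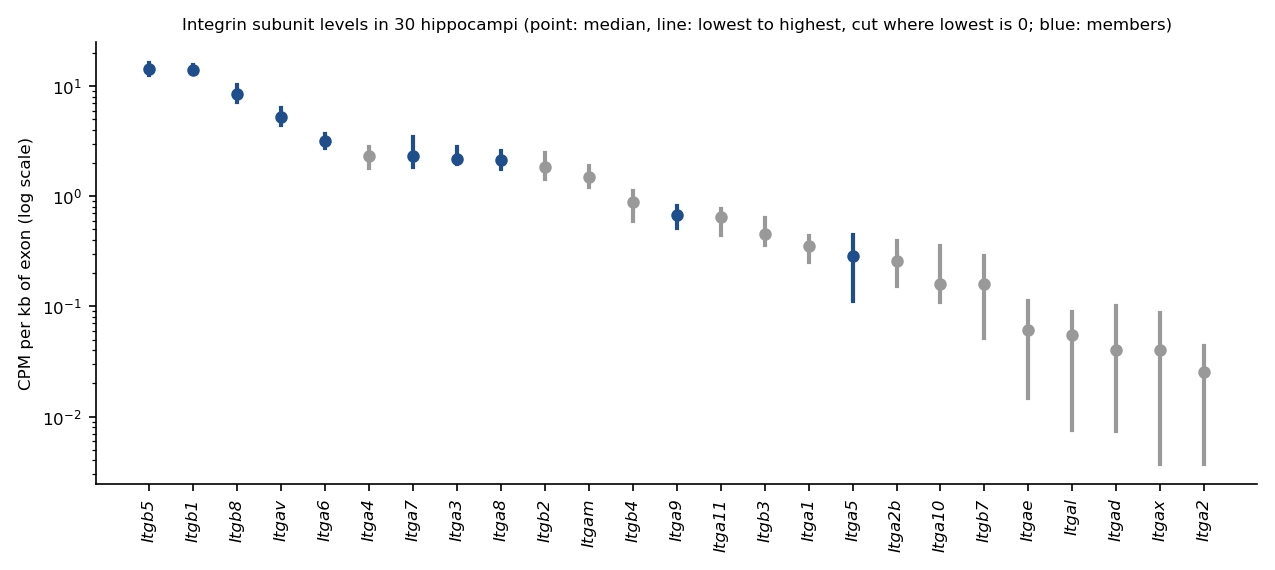
Level of each integrin subunit with a median above 0, in CPM per kb of exon on a log axis, over 30 hippocampi (points, medians; lines, lowest to highest mouse; blue, the 10 genes described; grey, other subunits). Itgb5 and Itgb1 head the order at 14.3 and 13.9 CPM per kb, and Itga9 and Itga5 are the lowest of the 10 at 0.679 and 0.287.

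The transcripts of the receptor subunits were then compared between genotypes, fitting all 16486 genes that passed the filter. Itga3 (ENSMUSG00000001507, GRCm38 chromosome 11, 95044474 to 95076801, minus strand) lay between 11.3 and 14.6 CPM in TIMP2 KO mice, with a median of 13.03, and between 11.2 and 16.1 CPM in WT mice, with a median of 12.3. The ranges overlapped almost throughout, with 1 WT mouse above and 1 below all TIMP2 KO mice. The log2 difference was 0.03 (standard error 0.04, p = 0.463, adjusted p = 0.998 by edgeR's quasi-likelihood test). Its 95% interval ran from a level 3.8% lower to one 8.7% higher in TIMP2 KO.

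Itgb1 (ENSMUSG00000025809, chromosome 8, 128685654 to 128733200, plus strand) varied least of the 10, with a coefficient of variation of 4.6% in TIMP2 KO and 5.0% in WT mice. It ranged from 55.1 to 62.4 CPM around a median of 56.9 in TIMP2 KO mice, and from 54.0 to 64.3 CPM around a median of 56.8 in WT mice. The log2 difference was 0.005 (0.3%, 95% interval -3.3% to 4.0%, p = 0.862, adjusted p = 0.998 by the same test). A difference of Itgb1 beyond 4.0% in either direction lay outside this interval.

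Among the other alpha subunits that pair with beta1, Itga8 was lower and Itga9 was higher in TIMP2 KO hippocampi at the threshold for DEGs in the study, an unadjusted p under 0.05. These were 2 of the 10 genes, 1 in each direction, by edgeR and also by DESeq2. Over all genes tested 4.88% had such a p, 2.38% with higher and 2.5% with lower levels in TIMP2 KO. After Benjamini-Hochberg adjustment 0 of the 10 passed, by edgeR and by DESeq2, and 0.0425% of all genes did.

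Itga8 (ENSMUSG00000026768, chromosome 2, 12106632 to 12301922, minus strand) encodes alpha8, whose receptor with beta1 is known to bind nephronectin and other ligands with an RGD motif. Its level lay between 12.96 and 16.95 CPM in TIMP2 KO mice, with a median of 14.2, and between 13.2 and 19.0 CPM in WT mice, with a median of 16.6. Most TIMP2 KO mice were in the lower part of the WT range: 11 of 13 were below the WT median, and 6 of 17 WT mice were above all TIMP2 KO mice. The level was lower by 10.3% in TIMP2 KO (95% interval 4.3% to 15.9%), a log2 difference of -0.16 (standard error 0.05, p = 0.00165, adjusted p = 0.773 by edgeR's quasi-likelihood test). By p it stood at place 32 of the 16486 genes.

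Itga9 (ENSMUSG00000039115, chromosome 9, 118606690 to 118901003, plus strand) encodes alpha9, which with beta1 is known as a receptor for tenascin-C and VCAM1. It lay between 4.79 and 6.27 CPM in TIMP2 KO mice, with a median of 5.62, and between 3.98 and 5.99 CPM in WT mice, with a median of 5.11. Here 7 of 17 WT mice were below all TIMP2 KO mice and 3 of 13 TIMP2 KO mice were above all WT mice. The level was 10.8% higher in TIMP2 KO (95% interval 1.7% to 20.8%), a log2 difference of 0.15 (standard error 0.06, p = 0.0208, adjusted p = 0.981 by the same test). It rested on 92 to 244 counts per mouse.

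Since the pair moved apart, the ratio of Itga8 to Itga9 CPM averaged 2.66 ± 0.28 over the 13 TIMP2 KO and 3.33 ± 0.58 over the 17 WT mice (SD), which restates both differences. Each of these genes overlaps a gene on the opposite strand, and the strand setting of the counting is not given in the sources used here, so reads of the overlap could not be assigned with certainty. E030013I19Rik, opposite Itga8, had 75 to 194 counts per mouse and a log2 difference of -0.09 (p = 0.251 by edgeR). Gm2415, opposite Itga9, had 480 to 1154 counts and a log2 difference of -0.01 (p = 0.627 by edgeR), whereas Gm10157 had 2 to 13 counts and was not tested.

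Fitting sex and 8 surrogate variables, which absorb variation shared by many genes, brought Itga8 to a log2 difference of -0.08 (p = 0.0919 by edgeR), and Itga9 stayed at 0.15 (p = 0.0429). Markers of dentate gyrus granule cells were examined beside Itga8. Of 8 such markers tested, 3 had an unadjusted p under 0.05 and lower levels in TIMP2 KO (Prox1, Stxbp6 and Tdo2), against 2.5% of all genes tested, and 5 did not pass. In sign, 7 of the 8 were lower and 1 was higher in TIMP2 KO, with a median log2 difference of -0.13. The summed level of all 8 was 486.7 to 648.5 CPM in TIMP2 KO mice, with a median of 606.1. In WT mice it was 543.9 to 815.5 CPM, with a median of 621.5. From mouse to mouse, with sex and genotype means removed, Itga8 and the mean log2 level of these markers had a Pearson r of -0.10 (Spearman rho -0.22, permutation p = 0.617 and 0.246, 30 mice). With genotype means removed, this r cannot bear on a difference between the genotypes that Itga8 and the markers share. The part of tissue composition in the genotype difference of Itga8 was not tested.

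**Figure D2:**
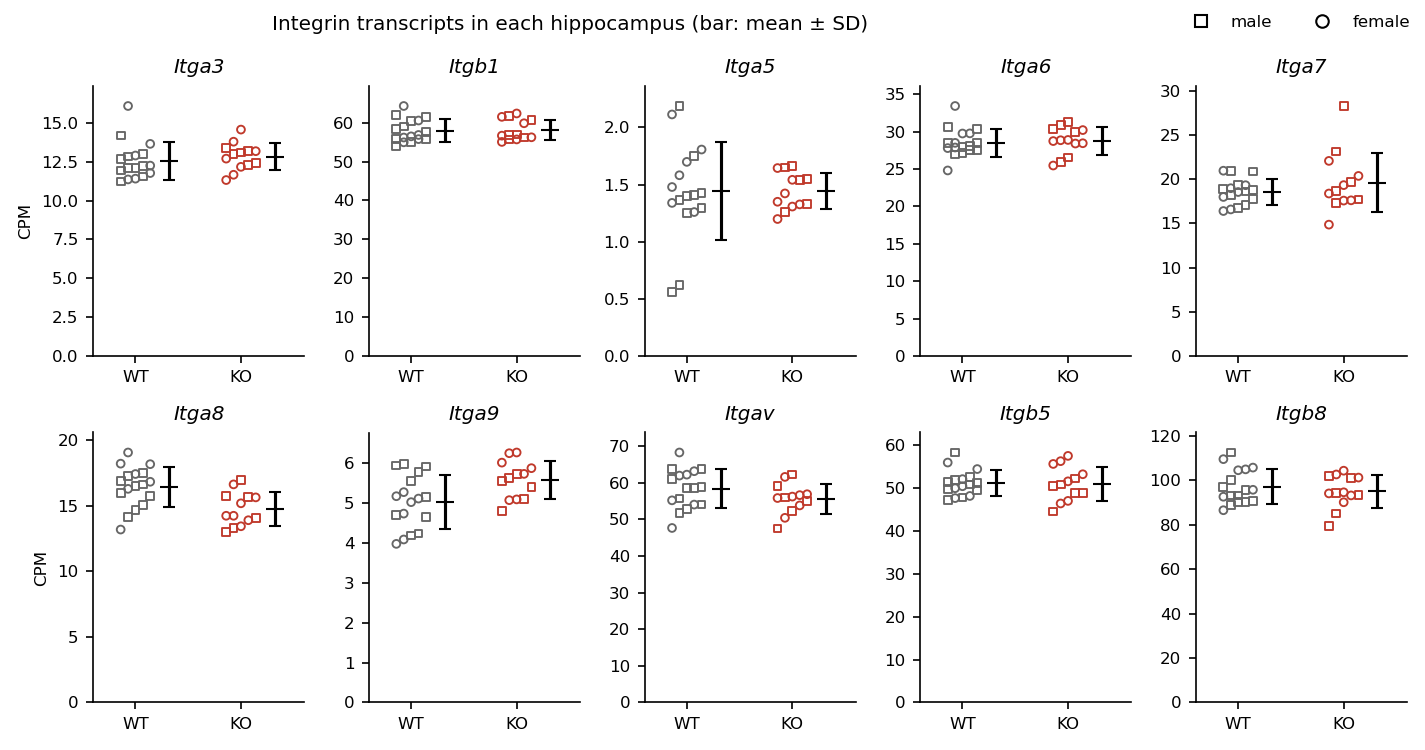
Level of each of the 10 integrin genes in each hippocampus, in CPM, in 17 WT (grey) and 13 TIMP2 KO (red) mice (squares, males; circles, females; bars, mean ± SD). TIMP2 KO mice lie low within the WT range for Itga8 and high for Itga9, and the 2 WT males at the bottom of the Itga5 panel are at 0.56 and 0.62 CPM.

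For the laminin-binding alpha6 and alpha7 and the fibronectin-binding alpha5, the genotype difference did not pass the test. Itga6 (ENSMUSG00000027111, chromosome 2, 71745616 to 71858416) lay between 25.5 and 31.2 CPM in TIMP2 KO and between 24.8 and 33.4 CPM in WT mice, with medians of 28.8 and 28.0. Its difference was 0.8% (95% interval -3.9% to 5.8%, p = 0.738 by edgeR).

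Itga7 (ENSMUSG00000025348, chromosome 10, 128933818 to 128958282) had a coefficient of variation of 17.2% in TIMP2 KO and 7.8% in WT mice. It lay between 14.9 and 28.3 CPM in TIMP2 KO, with a median of 18.7, and between 16.4 and 21.0 CPM in WT mice, with a median of 18.6. The TIMP2 KO group held both the lowest mouse of all, a female at 14.9 CPM, and the 3 highest, at 22.1, 23.1 and 28.3 CPM. The log2 difference was 0.08 (95% interval -0.05 to 0.21, p = 0.21 by edgeR), and it was 0.02 (p = 0.643) without the male at 28.3 CPM.

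Itga5 (ENSMUSG00000000555, chromosome 15, 103344286 to 103366763) was measured too weakly for a close comparison. Its levels were 1.20 to 1.66 CPM in TIMP2 KO mice, with a median of 1.42, and 0.56 to 2.19 CPM in WT mice, with a median of 1.41. The WT group held both extremes, and the 95% interval of the difference ran from -15.5% to 20.4% (p = 0.926 by edgeR).

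Alphav pairs with several beta subunits. With beta5 it binds vitronectin, and with beta8 it is known to release active TGF-beta from its latent complex in the brain. Itgav (ENSMUSG00000027087, chromosome 2, 83724397 to 83806916) lay between 47.5 and 62.3 CPM in TIMP2 KO mice, with a median of 56.0, and between 47.7 and 68.3 CPM in WT mice, with a median of 58.7. Of the TIMP2 KO mice 10 of 13 were below the WT median, and 4 of 17 WT mice were above all TIMP2 KO mice. The level was 4.7% lower (95% interval 10.2% lower to 1.2% higher, log2 difference -0.07, p = 0.116 by edgeR), so it did not pass. Itgav was the member nearest to the threshold from outside, and without the WT female numbered 4, which had the lowest WT level, its p was 0.034.

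Itgb8 (ENSMUSG00000025321, chromosome 12, 119158022 to 119238802) lay between 79.4 and 104.4 CPM in TIMP2 KO and between 86.6 and 112.6 CPM in WT mice, with medians of 94.5 and 95.7. Its difference was -2.2% (95% interval -7.5% to 3.5%, p = 0.433 by edgeR). Itgb5 (ENSMUSG00000022817, chromosome 16, 33829665 to 33949338) ranged from 44.5 to 57.5 CPM in TIMP2 KO and from 47.1 to 58.3 CPM in WT mice, and its medians were alike at 50.8 CPM in both. The difference of Itgb5 was -0.2% (95% interval -4.8% to 4.7%, p = 0.943 by edgeR).

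Over the 10 genes the median log2 difference was 0.01, and over all genes tested it was 0.00. The median size of the difference, regardless of sign, was 0.03 on the log2 scale for the 10 genes and 0.03 for all genes. In sign, 6 of the 10 were higher and 4 lower in TIMP2 KO.

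**Figure D3:**
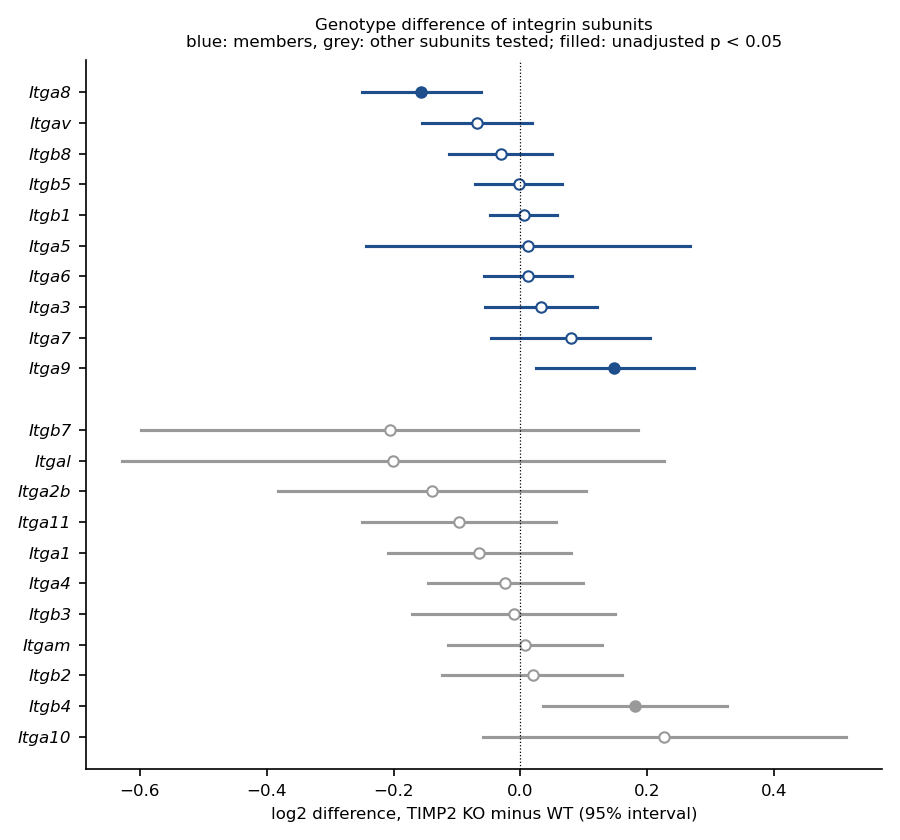
Difference between TIMP2 KO and WT hippocampi for the 21 integrin subunits tested, on the log2 scale, with 95% intervals from edgeR's quasi-likelihood fit (blue, the 10 genes described; grey, the other 11; filled points, unadjusted p under 0.05). The intervals of Itga8, Itga9 and Itgb4 lie clear of 0, and those of Itgb1 and Itga6 are among the narrowest.

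Both sexes were present in each genotype, so the genotype difference was also examined within each sex. In female mice Itga8 was 13.4 to 16.6 CPM in TIMP2 KO (median 14.2) and 13.2 to 19.0 CPM in WT (median 17.4), a log2 difference of -0.21 (p = 0.0041 by edgeR's quasi-likelihood test). The lowest WT female, at 13.2 CPM, was below all TIMP2 KO females, while the next, at 16.3 CPM, was above 6 of the 7. In male mice the levels were 12.96 to 16.95 CPM (median 14.8) and 14.1 to 17.5 CPM (median 16.2), a log2 difference of -0.12 (p = 0.0702 by edgeR).

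For Itga9 the females were further apart. It lay between 5.07 and 6.27 CPM in TIMP2 KO females (median 5.87) and between 3.98 and 5.27 CPM in WT females (median 5.02), a log2 difference of 0.27 (p = 0.00434 by edgeR). Only the 2 lowest TIMP2 KO females, at 5.07 and 5.09 CPM, fell within the WT range. In males the ranges were 4.79 to 5.73 CPM in TIMP2 KO and 4.18 to 5.99 CPM in WT, so that the TIMP2 KO males lay inside the WT range, with a log2 difference of 0.05 (p = 0.618 by edgeR).

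The difference between the sexes was tested itself as an interaction. For Itga9 it was 0.22 on the log2 scale (95% interval -0.02 to 0.47, p = 0.0748 by edgeR) and for Itga8 -0.10 (95% interval -0.28 to 0.09, p = 0.307). At an unadjusted p under 0.05 the interaction called 0 of the 10 genes by edgeR and 0 by DESeq2, against 2.49% of all genes tested. Within females 2 of the 10 passed (4.76% of all genes), and within males 0 of the 10 (3.16% of all genes), which by itself does not show that the sexes differ.

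Between females and males, with genotype in the model, 0 of the 10 genes differed at an unadjusted p under 0.05 by edgeR and 0 by DESeq2, whereas 9.64% of all genes tested did by edgeR. Itgb8 came closest, 5.1% higher in females (95% interval -0.3% to 10.9%, p = 0.0656 by edgeR). For Itga3 the difference was 0.9% (95% interval -5.1% to 7.3%) and for Itgb1 0.1% (95% interval -3.5% to 3.9%).

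**Figure D4:**
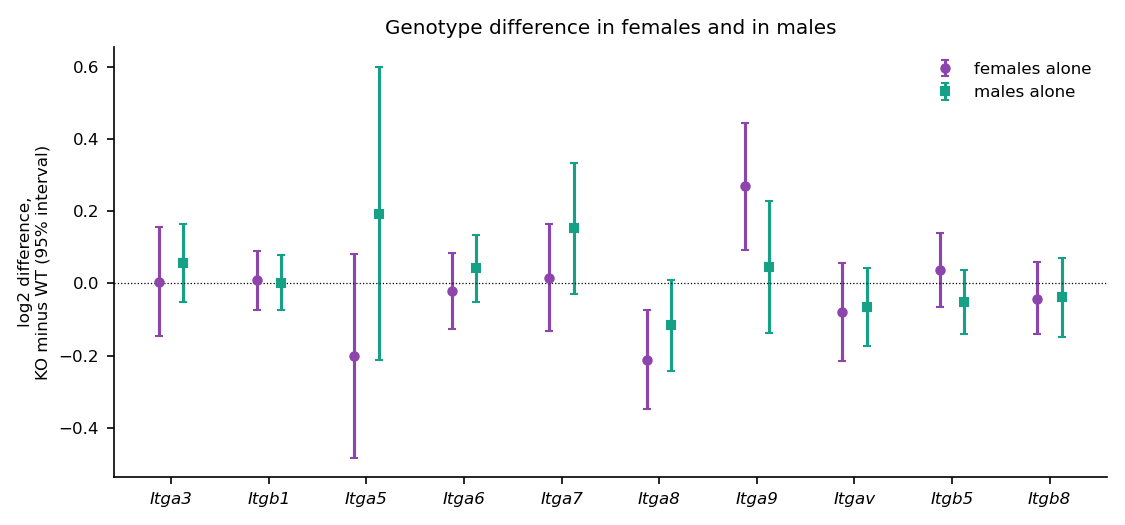
Difference between TIMP2 KO and WT hippocampi within females (circles; 7 TIMP2 KO and 7 WT) and within males (squares; 6 TIMP2 KO and 10 WT) for the 10 integrin genes, on the log2 scale with 95% intervals from separate edgeR fits. Itga8 and Itga9 lie clear of 0 in females, at -0.21 and 0.27, and their intervals in males include 0.

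Variation from mouse to mouse was then used to ask which integrin transcripts moved together, on log2 CPM with the means of the 4 sex and genotype groups removed. Of 45 pairs among the 10 genes, 3 had an adjusted p under 0.05, each positive. The closest pair was Itgav with Itgb8, the subunits of alphavbeta8, with a Pearson r of 0.78 and a Spearman rho of 0.80 over 30 mice (permutation p = 1e-05 for both, the smallest that 100000 resamples can give, adjusted p = 0.00045). Without the 2 mice farthest from the median Itgav r was 0.69, and the values by genotype were 0.84 for TIMP2 KO and 0.76 for WT mice. A TIMP2 KO male (mouse 10) was lowest in both, with 47.5 CPM of Itgav and 79.4 CPM of Itgb8. The highest mice were not shared, since Itgav was highest in mouse 23 (68.3 CPM) and Itgb8 in mouse 31 (112.6 CPM), both WT.

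Itga6 varied with Itgav (r = 0.60, rho = 0.46, permutation p = 5.6e-04 and 0.0114, adjusted p = 0.0126 and 0.0928) and with its own beta partner Itgb1 (r = 0.56, rho = 0.54, permutation p = 0.00128 and 0.00238, adjusted p = 0.0192 and 0.0535). Without the 2 mice farthest from the median Itga6 the r with Itgav was 0.39. Without the 2 farthest from the median Itgb1 the r of Itga6 with Itgb1 was 0.41. No such relation was found for the TIMP2 receptor pair, Itga3 with Itgb1, whose r was 0.07 and rho 0.12 over 30 mice (permutation p = 0.73 and 0.526). Without the 2 mice farthest from the median Itga3 its r was 0.34. Within genotypes r was 0.57 in TIMP2 KO and -0.19 in WT mice, and this difference was not tested. Itgav with its other beta partner Itgb5 had an r of 0.00 (rho -0.05, permutation p = 0.985 and 0.796).

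Because Itgav and Itgb8 were the closest pair, the 250 bases before their RefSeq starts (GRCm38.p6) are shown, each in the direction of its gene, with every CpG dinucleotide in capitals. The Itgav stretch is chr2:83724147-83724396 on the plus strand and the Itgb8 stretch is chr12:119238277-119238526 on the minus strand. The Itgb8 stretch lies inside the gene as GENCODE M21 has it (119158022 to 119238802), because that annotation starts the gene further upstream, and the Itgav stretch ends at the base before its gene.
Itgav: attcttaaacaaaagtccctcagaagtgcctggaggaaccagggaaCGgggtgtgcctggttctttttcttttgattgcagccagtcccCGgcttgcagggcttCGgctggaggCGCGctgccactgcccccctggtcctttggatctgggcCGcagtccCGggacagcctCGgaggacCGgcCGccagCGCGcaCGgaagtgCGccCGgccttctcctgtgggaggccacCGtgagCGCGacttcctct
Itgb8: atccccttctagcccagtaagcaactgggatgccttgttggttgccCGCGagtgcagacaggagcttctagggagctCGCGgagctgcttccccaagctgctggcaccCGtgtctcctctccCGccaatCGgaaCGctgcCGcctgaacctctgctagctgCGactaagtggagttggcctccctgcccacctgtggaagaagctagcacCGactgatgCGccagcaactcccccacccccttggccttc
Both were rich in G and C, with 64.4% in Itgav and 62.4% in Itgb8 against a median of 52.4% over 32851 such stretches, and held 18 and 12 CpG dinucleotides. This was not particular to the pair, since G and C made up 68.0% for Itgb1 and 65.2% for Itgb5. The value was 58.4% for Itga9, 56.4% for Itga8, 55.6% for Itga5 and, depending on the start, 67.6% or 50.8% for Itga3. Of 5 motifs searched on both strands, the Itgb8 stretch held 1, a single CCAAT, and the Itgav stretch held 0. Among all stretches CCAAT occurred in 33.8%, GGGCGG in 32.7%, TATAAA in 12.4%, CACGTG in 6.0% and TGACGTCA in 1.5%. These are letter matches only, and binding was not measured.

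The same residual levels were compared with marker scores of 14 cell types, each the mean log2 CPM of its markers, giving 140 relations of which 6 had an adjusted p under 0.05. Itgav, Itga6 and Itgb8 rose with the oligodendrocyte precursor score (Pdgfra, Cspg4, Gpr17, Vcan and Cacng4). For Itgav r was 0.74 and rho 0.66 (permutation p = 2e-05 and 1.4e-04, adjusted p = 0.0014 and 0.0098), for Itga6 0.68 and 0.56 (p = 6e-05 and 0.00123, adjusted p = 0.0028 and 0.0344), and for Itgb8 0.63 and 0.57 (p = 1.6e-04 and 0.00111, adjusted p = 0.0056 and 0.0344), all by permutation over 30 mice. Without the 2 mice farthest from the median of the score, as for each score below, these r were 0.69, 0.58 and 0.56. Itgav and Itgb8 thus both followed this score, and with the score held constant their partial r was 0.60, a value computed after the relation was seen and given with no test.

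Itgb5 rose with the microglia score instead (r = 0.71, rho = 0.75, permutation p = 2e-05 for both, adjusted p = 0.0014 and 0.0028), and r was 0.72 without the 2 farthest mice. It also rose with the endothelial score (r = 0.57, rho = 0.54, permutation p = 0.00112 and 0.00219, adjusted p = 0.0261 and 0.0511), with an r of 0.51 without the 2 farthest mice. Itgb8 rose with the dentate gyrus granule cell score (r = 0.61, rho = 0.61, permutation p = 2.7e-04 and 5e-04, adjusted p = 0.00756 and 0.0233), at 0.51 without the 2 farthest mice. For Itga3, Itgb1, Itga8 and Itga9 0 of the 14 scores had an adjusted p under 0.05 by Pearson's r, and at an unadjusted permutation p under 0.05 there were 3, 4, 2 and 1. All these values come from the same libraries, whose depth and composition they share.

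Within a genotype Timp2 also varied. The study found no TIMP2 band in hippocampal interstitial fluid of TIMP2 KO mice, so their Timp2 reads do not measure TIMP2 protein. On log2 CPM with sex means left in, 20 relations of Timp2 with the 10 genes were computed, 10 in 17 WT and 10 in 13 TIMP2 KO mice. None had an adjusted p under 0.05, and 2 had an unadjusted p under 0.05 by permutation of Pearson's r, both in TIMP2 KO mice. Itga7 was higher where Timp2 was lower (r = -0.79, rho = -0.73, permutation p = 0.00315 and 0.00678, adjusted p = 0.063 and 0.071). Without the 2 mice farthest from the median Timp2 r was -0.50, and without the TIMP2 KO male numbered 18 alone, which had the lowest Timp2 (130.0 CPM) and the highest Itga7 (28.3 CPM), it was -0.52. Itga3 was higher where Timp2 was higher (r = 0.60, rho = 0.73, permutation p = 0.0304 and 0.0071, adjusted p = 0.304 and 0.071). Here r was 0.75 without the 2 farthest mice and 0.84 without mouse 18. In WT mice the same relations had an r of -0.36 for Itga7 (rho -0.39, permutation p = 0.163 and 0.131) and 0.29 for Itga3 (rho 0.19, permutation p = 0.261 and 0.463), and the difference between genotypes was not tested.

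**Figure D5:**
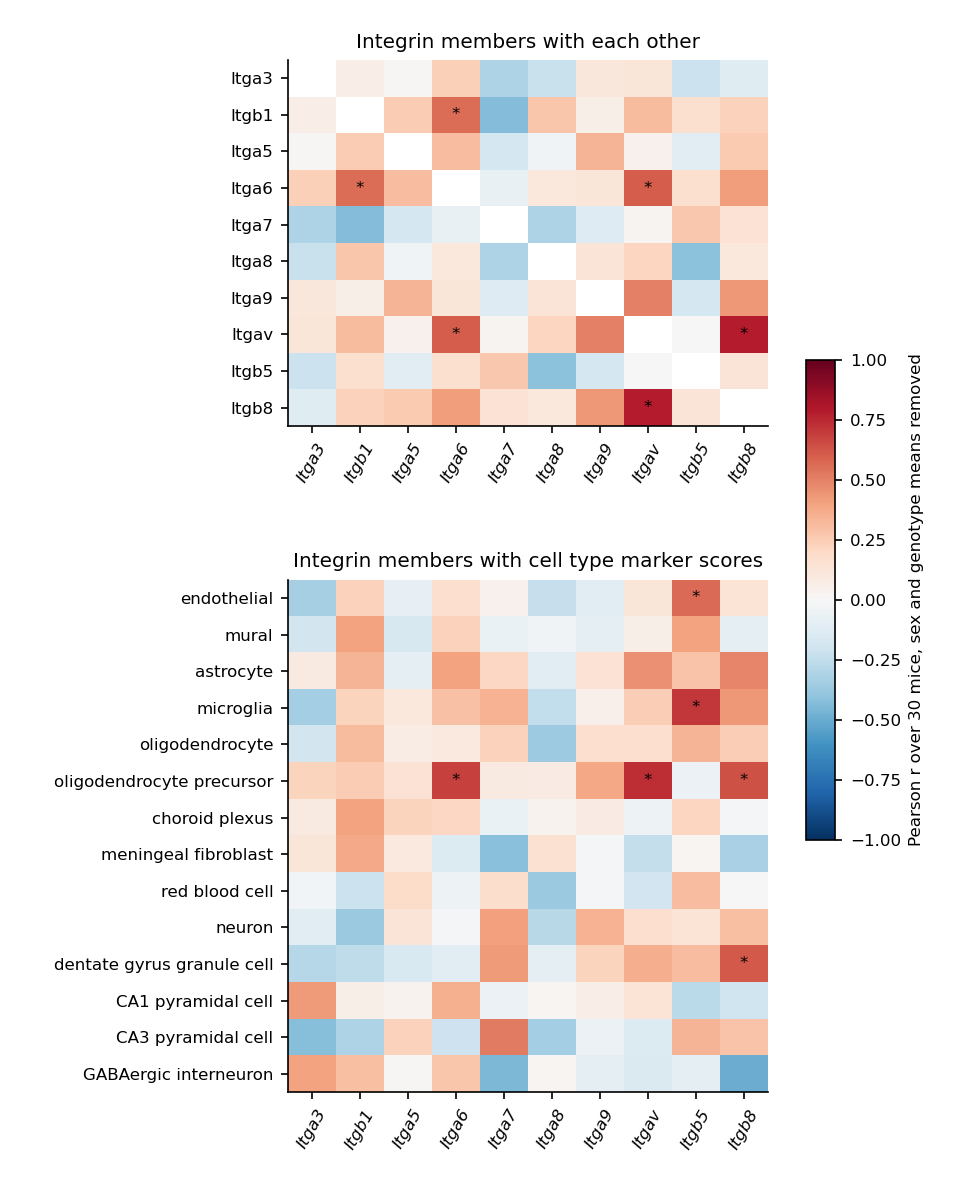
Pearson r over 30 mice of the log2 CPM of the 10 integrin genes with each other (upper panel) and with marker scores of 14 cell types (lower panel), after the means of the 4 sex and genotype groups were removed (asterisks, adjusted p under 0.05 in that family). The strongest square among the genes joins Itgav and Itgb8 at 0.78, and the oligodendrocyte precursor row stands out for Itga6, Itgav and Itgb8.

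The genes whose residual levels were most like those of the receptor subunits were listed without a test. For Itga3 they were St8sia2 (r = 0.69 over 30 mice), Fndc3a (0.69), Etl4 (0.68), Igsf10 (0.67) and Tm9sf4 (0.67). For Itgb1 they were Cspg5 (0.68), Prph (0.66), Rdx (0.66), Ctnnbip1 (0.66) and Asrgl1 (0.64). These are the highest of all 16486 genes tested, and such a choice gives high values by construction.

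The wider integrin system was read from hand-drawn lists. Of the 11 other integrin subunits tested, 1 had an unadjusted p under 0.05, against 4.88% of all genes tested. It was Itgb4, the partner of alpha6 in hemidesmosomes. Itgb4 lay between 5.00 and 7.91 CPM in TIMP2 KO (median 6.97) and between 4.22 and 7.33 CPM in WT mice (median 5.92), and 5 of 13 TIMP2 KO mice were above all WT mice. It was 13.4% higher (95% interval 2.5% to 25.4%, p = 0.0157, adjusted p = 0.974 by edgeR), and the p exceeded 0.05 in females alone (0.0585), in males alone (0.0607) and with sex and surrogate variables (0.114). Itgb4 lies 2.29 Mb from Timp2 on chromosome 11, so DNA linked to the targeted allele and the absence of TIMP2 cannot be told apart there. Itga3, on the same chromosome, lies 23.2 Mb from Timp2, and how far linked DNA reaches was not tested.

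Of 34 integrin ligands tested (laminins, fibronectin, tenascin-C, TGF-beta and others), 1 had an unadjusted p under 0.05, against 4.88% of all genes tested. It was the matricellular Ccn1, with a log2 difference of 0.50 (standard error 0.20, p = 0.0164, adjusted p = 0.974 by edgeR). For Ccn1 the p exceeded 0.05 in females alone (0.0968), in males alone (0.135) and with sex and surrogate variables (0.104). Of 26 activators and adaptors such as talins, kindlins and paxillin, 1 had such an unadjusted p, against the same 4.88% of all genes. This was Parvb, with a log2 difference of -0.07 (standard error 0.03, p = 0.0365, adjusted p = 0.99 by edgeR). That of Parvb exceeded 0.05 in females alone (0.124), in males alone (0.072), by limma voom (0.085) and without any 1 of 10 mice (TIMP2 KO mice 5, 10, 14, 18, 20 and 30 and WT mice 12, 16, 19 and 21), with a p of up to 0.0806. None of 20 signalling genes (focal adhesion kinase, Src family kinases and others), 8 membrane partners such as tetraspanins and 4 binding partners of TIMP2 (Mmp2, Mmp14, Reck and Timp3) had an unadjusted p under 0.05. The study reported higher Mmp2 mRNA by qPCR and higher MMP2 protein in TIMP2 KO hippocampus. In the counts the log2 differences of the 4 binding partners, Mmp2 among them, lay between -0.048 and 0.001. The labels do not give the age of the sequenced mice, and the assays were not compared. The list medians of the log2 difference lay close to 0, at 0.02 for ligands, 0.01 for adaptors, -0.01 for signalling genes, 0.01 for membrane partners and -0.01 for TIMP2 partners.

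Markers of other tissue were checked beside these values. Of the 5 choroid plexus markers tested of 11 listed, 4 had an unadjusted p under 0.05 and higher levels in TIMP2 KO, against 2.38% of all genes tested. Summed levels of the 11 were 131.8 to 1142 CPM in TIMP2 KO mice, with a median of 163.7. In WT mice they were 125.7 to 177.5 CPM, with a median of 157.2. Over mice, with sex and genotype means removed, the score of these markers had an r of 0.04 with Itga8 (rho 0.04, permutation p = 0.842), 0.09 with Itga9 (rho 0.04, p = 0.661) and 0.41 with Itgb1 (rho 0.42, p = 0.0244 and 0.0208, adjusted p = 0.179 and 0.194). With genotype means removed, these r cannot bear on a genotype difference that the markers and an integrin gene share. No marker of the 14 lists, those of the hippocampal fields included, was at 0 in all mice, and the part of choroid plexus content in these results was not tested.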

How the data were processed

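Hippocampi of 13 TIMP2 KO and 17 WT mice were sequenced from poly(A)-selected RNA (RNA integrity number over the study's limit) as paired-end reads. The authors deposited raw counts of reads per gene. Per the submitters' processing notes, reads were trimmed with Trimmomatic 0.36, aligned to GRCm38 with STAR 2.5.2b and counted with featureCounts (Subread 1.5.2). The strand setting and annotation release are not given in the sources used here. All 30 columns were matched to mice by their labels.

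Symbols and exon lengths came from GENCODE M21 (49056 of 49315 identifiers). TMM factors, filterByExpr and robust quasi-likelihood tests came from edgeR 4.0.16 (R 4.3.3) and were run on all genes, with both sexes pooled and without covariates. The Benjamini-Hochberg adjustment ran over the 16486 genes tested. Confidence intervals are at 95%, and log2 CPM used a prior count of 2. The common biological coefficient of variation was 7.52%. The labels do not name litters or cages, so neither was fitted and the tests treat each mouse as independent. Upstream sequences were RefSeq's, with 8 of the 10 genes matched.

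Alternatives were DESeq2 1.42.0, RLE factors, all genes unfiltered, a minimum of 10 counts per mouse, sex with and without surrogate variables (sva 3.50.0), each sex alone, limma 3.58.1 voom with sample weights, and each mouse left out. Estimation without robustness and leaving out single mice from the Timp2 relations were added after the data were seen. Named were the 10 genes, Timp2, Itgb4, the other subunits, list genes with an unadjusted p under 0.05 (at most 6 a list, by p) and, for Itga3 and Itgb1, the 5 genes with the highest r. Genes and lists were chosen with earlier results of these data known. The tests were tried on simulated data.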

Additional observations from a re-analysis of the deposited data

Results flagged for a closer look

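Values far from the others of the same sex and genotype were sought in 96 groups for 24 genes, among which chance gives about 4.8 (1 in 20), and 6 were found. On the log2 CPM scale, the lowest Itga6 of the TIMP2 KO females was in mouse 8 (4.67). Mouse 28, a WT female, had the lowest Itga8 (3.73), and the same mouse had the highest Itga3 of all 30 (16.1 CPM). Without mouse 28 the log2 difference of Itga8 was -0.18 (p = 3.35e-04 by edgeR). Mouse 12, a WT male, had the highest Itgb5 (5.87), and mouse 31, a WT male, the highest Itgb8 (6.82). Among TIMP2 KO males the lowest Timp2 was in mouse 18 (7.02). Among TIMP2 KO females the highest Itga2b, a platelet integrin of low level, was in mouse 3 (0.98). The causes were not tested.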

How the results depend on the processing

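The 2 of 10 integrin genes with an unadjusted p under 0.05 in TIMP2 KO against WT became 0 with males alone, and were 2 to 3 when each mouse was left out. The count at an adjusted p stayed 0 in each of these fits. Over all genes, 1878 had an unadjusted p under 0.05 without a filter on low counts and 524 in males alone, against 804.

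Small differences changed sign. Itga3 was -0.016 with sex and surrogate variables, and 0.019 to 0.056 with each mouse left out. Itgb1 was -0.003 with sex and surrogate variables, and -0.003 to 0.015 with each mouse left out. With females alone Itga5 was -0.201, Itga6 -0.022 and Itgb5 0.037, and with sex and surrogate variables Itga6 was -0.003 and Itgb8 0.010. With each mouse left out Itga5 ran from -0.040 to 0.055 and Itgb5 from -0.018 to 0.013. These effects had no p under 0.05 in any fit, and the cause was not tested.

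Itga8 kept its direction in all 40 alternatives (-0.212 to -0.080) and its p exceeded 0.05 in males alone and with sex and surrogate variables. Itga9 kept its direction (0.045 to 0.269) and its p exceeded 0.05 in males alone. The p of Itgav fell under 0.05 without WT mouse 4 (0.034) and with sex and surrogate variables (0.0495). No paired analysis was possible because the mouse numbers in the labels are unique to each mouse. Itga5, with 14 to 64 counts, and Itga9, with 92 to 244, had the lowest counts of the 10, and counting error and spread between mice were not separated.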
